A study of Mus musculus with 32 samples.

Results

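The genes described are 9 members of the DNA methylation machinery and its regulators, taken by symbol from 2 expression tables of mouse preimplantation embryos: the DNA methyltransferase genes Dnmt1, Dnmt3a, Dnmt3b and Dnmt3l, the methyltransferase partner Uhrf1, the dioxygenase genes Tet1, Tet2 and Tet3, and Dppa3. All 9 of the 46078 genes listed were found in each table, and all 9 reached the level required for testing in each. The study compared embryos with and without DPPA2 or DPPA4, a pair of nuclear proteins made in the oocyte and in early embryos, and asked what their loss does to the transcripts of the embryo before and after its genome is first transcribed. The 32 libraries comprise 16 of total RNA and 16 of polyadenylated (polyA) RNA.

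Genotypes are written as in the labels, where m stands for the allele from the mother and z for that of the zygote. The total RNA libraries form 8 groups of 2: m+z+ embryos and m-z+ embryos of a Dppa2 arm, and the same for Dppa4, each sampled late in the 1-cell stage, 12 hours post fertilization, and again late in the 2-cell stage, at 28 hours. The polyA libraries form 6 groups. Wild-type embryos were taken at the 1-cell stage (2 libraries) and the 2-cell stage (2 libraries), and m-z+ and m-z- embryos of Dppa2 and of Dppa4 at the 2-cell stage only (3 libraries each). Descriptions of the polyA libraries name single embryos, and those of the wild-type libraries name them controls of Dppa4. The number of embryos in a total RNA library, how the alleles were mutated and the mothers' age are not stated in the labels. Embryos of the Dppa2 arm were of a mixed B6/DBA background and those of the Dppa4 arm and the wild type were B6, so that arm and strain cannot be told apart. By their labels, m-z+ embryos lacked a working maternal allele and had a working zygotic allele, and m-z- embryos lacked both.

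DNA methylation in mammals is copied to the new strand after replication by DNMT1, which UHRF1 brings to half-methylated sites. New methylation is laid down by DNMT3A and DNMT3B, helped by DNMT3L, which has no catalytic activity of its own. TET proteins oxidize 5-methylcytosine, and TET3 is known for acting on the paternal genome of the zygote. DPPA3, also called STELLA or PGC7, is stored in the oocyte, and is known for protecting the maternal genome from that oxidation and for keeping UHRF1 out of the nucleus.

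By GENCODE vM21 on the mm10 build, all 9 genes are protein coding. Dnmt1 lies on the minus strand of chr9:20907209-20959888 with 39 exons in its longest transcript, and Uhrf1 on the plus strand of chr17:56303321-56323486 with 17. Dnmt3a lies on chr12:3806007-3914443 (plus strand), Dnmt3b on chr2:153649450-153687730 (plus) and Dnmt3l on chr10:78041947-78063622 (plus). Tet1 lies on chr10:62804570-62908996 (minus), Tet2 on chr3:133463679-133545139 (minus), Tet3 on chr6:83362373-83459084 (minus) and Dppa3 on chr6:122626410-122630272 (plus). Exons of Dnmt3a, Dnmt3l and Tet2 overlap exons of a gene on the other strand (Dnmt3aos, Aire and Gm42567), and reads of the unstranded polyA libraries cannot be told apart there.

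Promoters are shown for Dnmt1, Uhrf1 and Tet3, the members whose RNA was lower at the 2-cell stage in both kinds of library. RefSeq (GRCm38.p6) held promoter windows for 8 of the 9 members, 15 windows in all. The 250 bases before a RefSeq start are given 5′ to 3′ on the gene's strand, for 1 window per gene that holds a match described next and no GENCODE exon base of the gene. Capitals mark CCAAT or, for the other strand, ATTGG, the core of the CCAAT box bound by the factor NF-Y. The motif was chosen after the sequences were read, and a match is a description of the letters, not a site. The windows are chr9:20959889-20960138 (minus strand) for the most upstream start of Dnmt1, chr17:56304063-56304312 (plus) for the more downstream start of Uhrf1, and chr6:83441679-83441928 (minus) for Tet3, which lies inside the longer GENCODE gene.
Dnmt1: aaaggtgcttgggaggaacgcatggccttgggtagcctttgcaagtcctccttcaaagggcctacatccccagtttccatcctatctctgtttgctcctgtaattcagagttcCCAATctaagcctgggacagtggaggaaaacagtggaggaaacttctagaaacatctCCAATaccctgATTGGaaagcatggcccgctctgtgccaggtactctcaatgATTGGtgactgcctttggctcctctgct
Uhrf1: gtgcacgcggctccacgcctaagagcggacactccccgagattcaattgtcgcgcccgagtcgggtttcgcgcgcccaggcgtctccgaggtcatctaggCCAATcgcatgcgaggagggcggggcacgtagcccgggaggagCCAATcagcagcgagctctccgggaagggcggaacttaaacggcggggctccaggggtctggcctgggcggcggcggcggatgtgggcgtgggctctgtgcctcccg
Tet3: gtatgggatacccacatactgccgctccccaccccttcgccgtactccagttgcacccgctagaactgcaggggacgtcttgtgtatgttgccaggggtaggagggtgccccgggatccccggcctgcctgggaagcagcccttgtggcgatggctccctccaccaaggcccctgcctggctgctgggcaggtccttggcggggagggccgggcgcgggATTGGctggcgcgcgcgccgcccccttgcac

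The Dnmt1 window holds 4 matches and 2 CpG dinucleotides. Dnmt1 has another window free of exon bases, chr9:20952980-20953229, with 0 matches and 7 CpG, and its remaining window has 3 matches and 166 exon bases; neither is shown. The Uhrf1 window holds 2 matches and 30 CpG, and the Tet3 window 1 match and 17 CpG. Over all 32851 promoter windows the median was 6 CpG, and 33.8% held at least 1 match, 10.1% at least 2 and 2.8% at least 3. Of the 15 member windows 5 held a match, a share near that background. The windows of Dnmt3a, Dnmt3b, Dnmt3l, Tet1 and Tet2 held none of these letters.

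Values are FPKM, fragment counts scaled by transcript length and library size, so that genes can be compared with each other, and the read depth behind them is unknown. Their sum per library was 412115 to 629583 for total RNA and 539978 to 675241 for polyA RNA, and 10706 to 13071 and 10842 to 13916 genes reached 1 FPKM. Correlations between libraries of a group over all genes tested ranged from 0.935 to 0.987 for total RNA and from 0.862 to 0.972 for polyA RNA. Dppa4 was listed at 0, 0 and 0.149 FPKM in the Dppa4 m-z- libraries against 125 to 155 FPKM in m-z+, and 1-cell Dppa2 at 9.38 and 9.52 FPKM in Dppa2 m-z+ embryos against 32.3 and 32.7 FPKM in m+z+. In the polyA libraries labelled Dppa2 m-z-, Dppa2 RNA stood at 155, 130 and 76.5 FPKM against 92.4, 87.4 and 63.3 FPKM in m-z+, so its RNA level does not mark that genotype and no Dppa2 direction can be drawn from the label alone. All 8 of a list of maternally supplied oocyte genes and all 7 of a list of 2-cell genes were above 0 in each group, a low bar. At 1 FPKM in all libraries, 3 of the 7 2-cell genes stood in each total RNA 1-cell group, 4 in the polyA 1-cell group and 7 in each 2-cell group. Of 9 cumulus and granulosa genes and 6 sperm genes, Cyp19a1 reached 17.9 FPKM and Prm2 17.1 FPKM in polyA RNA, and the others at most 3.11 FPKM.

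Dppa3 was the most abundant member in every group. It ranked 19th to 21st of 15068 genes tested in the total RNA 1-cell groups and 39th to 45th in the 2-cell groups, and between 2nd and 9th of 18506 in the polyA groups. Tet3 stood next in every total RNA group, with 325 to 478 FPKM at the 1-cell stage, a median of 409. Dnmt1 (190 to 323 FPKM, median 234) and Uhrf1 (202 to 236, median 222) overlapped each other there, and their highest values lay below the lowest Tet3 value. The de novo genes Dnmt3l (41.9 to 57.2 FPKM) and Dnmt3a (29.6 to 79.6) overlapped each other as well, and Dnmt3b stood at 5.41 to 9.61 FPKM. Tet2 (0.963 to 2.30 FPKM) and Tet1 (0.104 to 1.32) closed the order at the 1-cell stage and overlapped. At the 2-cell stage Dnmt1 (19.9 to 40.6 FPKM), Uhrf1 (23.6 to 79.9) and Dnmt3l (15.2 to 35.1) overlapped in a middle range, and Tet1 (5.66 to 8.85) overlapped Dnmt3b (5.90 to 7.21) and the lower Dnmt3a libraries (6.94 to 20.9).

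**Figure D1:**
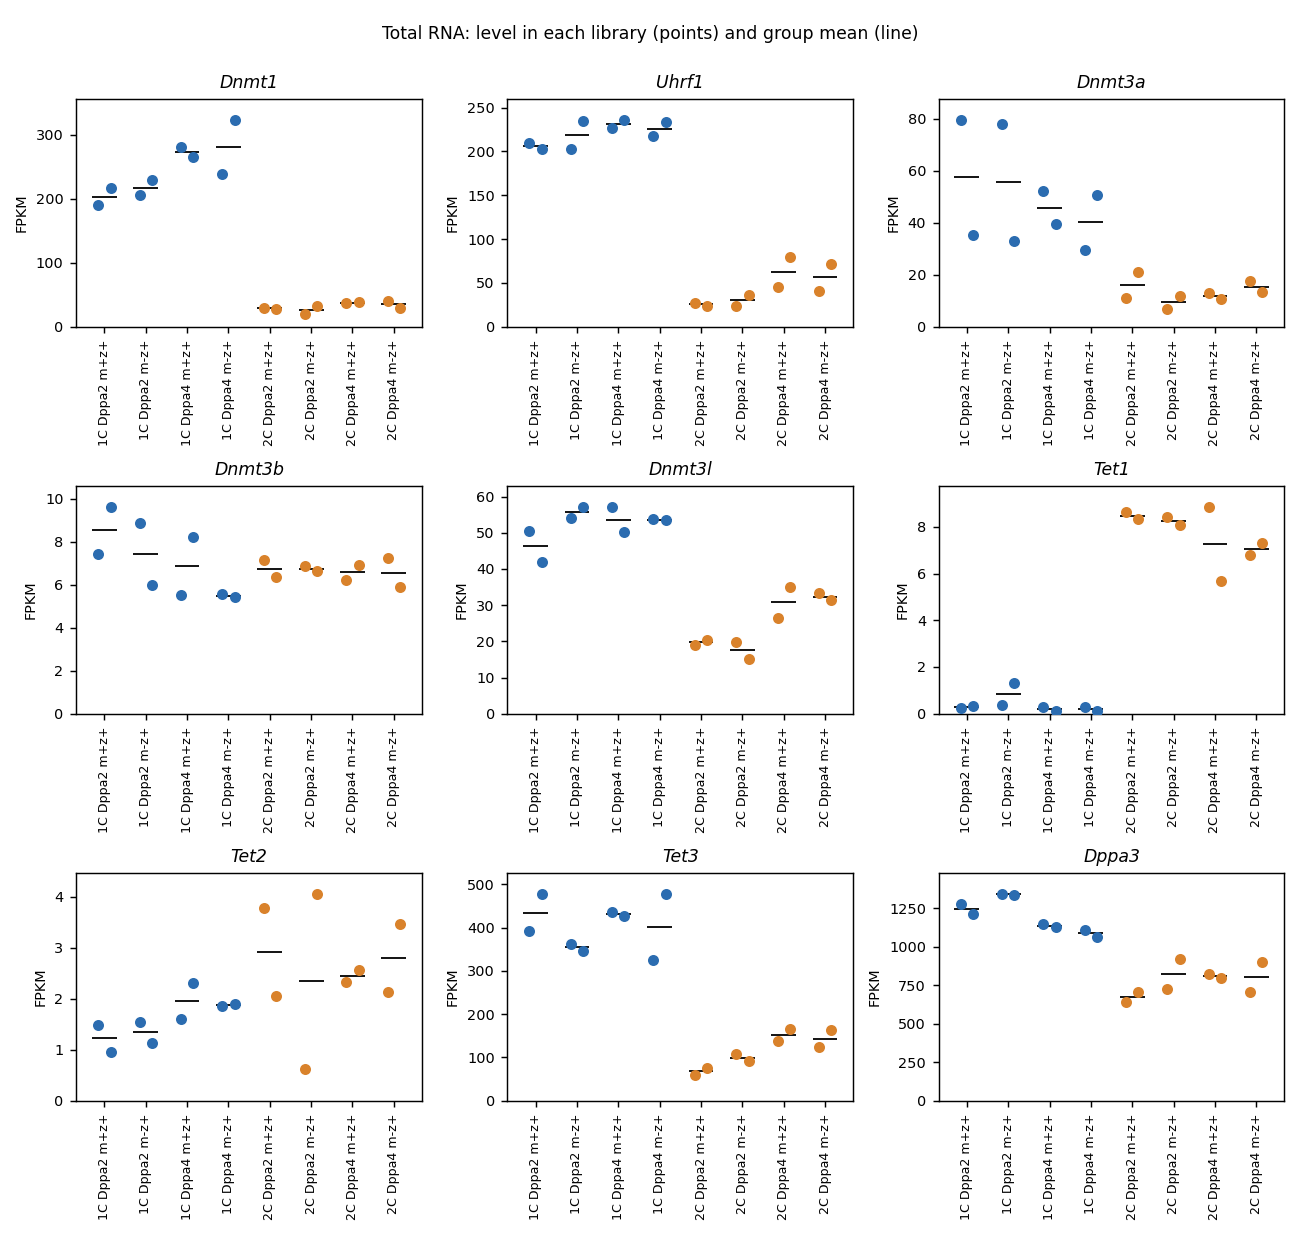
FPKM of the 9 genes in each of the 16 total RNA libraries, 1 panel per gene with its own linear axis; points are libraries (blue, 1-cell; orange, 2-cell) and lines are means of 2 libraries. The 1-cell points of Dnmt1 (190 to 323) lie far above its 2-cell points (19.9 to 40.6), and Tet1 shows the opposite order (0.104 to 1.32 against 5.66 to 8.85).

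The first comparison asks how each gene's RNA changed from the late 1-cell to the late 2-cell stage. In total RNA the same 6 of 9 members fell in each of the 4 genotypes (Dnmt1, Uhrf1, Dnmt3a, Dnmt3l, Tet3 and Dppa3), 1 rose (Tet1), and Dnmt3b and Tet2 did not pass the test. Over all genes tested, 61.6% passed in the Dppa2-arm m+z+ embryos, 49.1% in the Dppa4-arm m+z+ embryos, 57.3% in Dppa2 m-z+ and 50.3% in Dppa4 m-z+, and those lower were 29.9, 24.2, 28.4 and 25% of the genes, while 31.7, 24.9, 28.8 and 25.3% were higher. The median log2 change of the 9 members was -1.19, -0.79, -1.62 and -0.71 in that order, beside 0.06, 0.04, 0.02 and 0.03 for all genes. Tests are limma's on log2(FPKM + 1), two-sided, with Benjamini-Hochberg adjustment over all genes tested and a threshold of 0.05. Nothing in the labels says that the libraries of a group came from separate litters, so p-values reflect only library-to-library variation, some of it perhaps technical. In values scaled to the library, less RNA of the gene per embryo and a larger pool of other RNA cannot be told apart. The split of all genes called depended on the scaling. In Dppa2-arm m+z+ embryos 4783 genes were called higher and 4498 lower, against 3750 and 5802 with TPM scaling and 5393 and 3816 with median-ratio scaling. In Dppa4-arm m+z+ embryos these counts were 3755 and 3649, then 3087 and 4834 with TPM and 4368 and 3011 with median-ratio scaling. In Dppa2 m-z+ they were 4346 and 4286, then 3794 and 5098, and 4972 and 3704. In Dppa4 m-z+ they were 3812 and 3767, then 3146 and 5019, and 4432 and 3162.

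Dnmt1, the maintenance methyltransferase, showed a steep fall. In Dppa2-arm m+z+ embryos its 1-cell libraries held 190 and 216 FPKM and its 2-cell libraries 29.7 and 28.2 FPKM, and in Dppa2 m-z+ embryos they held 206 and 229 against 19.9 and 32.4 FPKM. In Dppa4-arm m+z+ embryos it stood at 281 and 264 against 37.0 and 37.9 FPKM, and in Dppa4 m-z+ embryos at 238 and 323 against 40.6 and 29.6 FPKM. Every 2-cell library lay below every 1-cell library, and the 4 genotypes kept 12.0 to 14.3% of the 1-cell mean. The log2 changes were -2.76, -3.04, -2.83 and -2.96 in that order (SE 0.22 each), a fall of 7.0- to 8.31-fold in mean FPKM, with limma adjusted p of at most 6.72e-07.

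Uhrf1, which recruits DNMT1 to replicated DNA, fell too. In the Dppa2 arm it went from 210 and 203 to 27.3 and 24.1 FPKM in m+z+ embryos and from 202 and 235 to 23.6 and 36.2 FPKM in m-z+ embryos. In the Dppa4 arm it went from 226 and 236 to 45.0 and 79.9 FPKM in m+z+ embryos and from 218 and 233 to 40.6 and 71.8 FPKM in m-z+ embryos. The 1-cell libraries of both arms overlapped, whereas every 2-cell library of the Dppa4 arm lay above every one of the Dppa2 arm. The log2 change was -2.96 in m+z+ and -2.85 in m-z+ embryos of the Dppa2 arm, against -1.93 and -2.04 for the Dppa4 arm (SE 0.28 each, limma adjusted p at most 0.000124).

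Of the de novo genes, Dnmt3l fell in each genotype, from 41.9 to 57.2 FPKM over the 8 1-cell libraries to 15.2 to 35.1 FPKM over the 8 2-cell libraries, which do not overlap. Its log2 changes were -1.19 in m+z+ and -1.62 in m-z+ embryos of the Dppa2 arm, against -0.79 and -0.71 for the Dppa4 arm (SE 0.18, limma adjusted p at most 0.00518). Dnmt3a fell from 29.6 to 79.6 FPKM to 6.94 to 20.9 FPKM, with log2 changes of -1.73, -2.37, -1.87 and -1.28 in the same order (SE 0.46, limma adjusted p 0.000702 to 0.0331). Its libraries varied widely within groups. The Dppa2-arm 1-cell pairs stood at 79.6 and 35.4 FPKM in m+z+ and at 77.9 and 33.1 FPKM in m-z+ embryos, replicate 1 being the higher in both. In the Dppa4 arm replicate 1 was the higher in m+z+ (52.1 and 39.6 FPKM) and the lower in m-z+ embryos (29.6 and 50.8 FPKM). The Dnmt3a call in Dppa2-arm m+z+ embryos was lost without 1-cell replicate 1 (log2 -1.16, adjusted p 0.0785) or 2-cell replicate 1 (-1.31, 0.0621). The call in Dppa4 m-z+ embryos was lost without 1-cell replicate 2 (adjusted p 0.223), 2-cell replicate 1 (0.0641) or 2-cell replicate 2 (0.155), with median-ratio scaling (0.0644) and with no filter on low values (0.0943). Dnmt3b, which is known mainly from later stages, ran from 5.41 to 9.61 FPKM at the 1-cell stage and from 5.90 to 7.21 FPKM at the 2-cell stage, so the stages overlapped, and its log2 changes of -0.29, -0.10, -0.03 and 0.21 did not pass. The Dnmt3b 95% interval in Dppa2-arm m+z+ embryos was -0.82 to 0.24 (limma adjusted p 0.311), and with TPM scaling that comparison passed (log2 -0.74, adjusted p 0.0297).

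Of the 3 TET genes Tet3 fell, Tet1 rose and Tet2 did not pass, and whether the change of Tet2 differed from that of Tet1 was not tested. Tet3, the TET gene of the oocyte and zygote, went from 391 and 478 to 58.9 and 76.2 FPKM in Dppa2-arm m+z+ embryos and from 362 and 346 to 107 and 91.6 FPKM in Dppa2 m-z+ embryos. In the Dppa4 arm it went from 437 and 426 to 138 and 167 FPKM in m+z+ embryos and from 325 and 477 to 123 and 164 FPKM in m-z+ embryos. No 2-cell library reached a 1-cell library, and the Dppa2-arm m+z+ pair was the lowest of the 2-cell pairs. The Tet3 log2 changes were -2.67, -1.83, -1.50 and -1.46 in that order (SE 0.20, limma adjusted p at most 7.71e-05), which left 15.6, 28.1, 35.3 and 35.8% of the 1-cell means. Tet1 rose in each genotype: it stood at 0.104 to 1.32 FPKM at the 1-cell stage and at 5.66 to 8.85 FPKM at the 2-cell stage, with the highest 1-cell value in Dppa2 m-z+ replicate 2. Its log2 changes on the scale of FPKM + 1 were 2.89, 2.37, 2.75 and 2.76 (SE 0.28, limma adjusted p at most 1.24e-05). Tet2 ran from 0.963 to 2.30 FPKM at the 1-cell stage and from 0.617 to 4.05 FPKM at the 2-cell stage, and its log2 changes of 0.79, 0.30, 0.23 and 0.38 did not pass. Without Dppa2 m-z+ 2-cell replicate 1, its lowest library, the Tet2 change in that genotype passed (log2 1.12, adjusted p 0.0166).

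Dppa3, the protector of the maternal genome, showed the smallest log2 changes of the 7 genes that passed. It went from 1279 and 1212 to 642 and 708 FPKM in Dppa2-arm m+z+ embryos and from 1343 and 1339 to 728 and 918 FPKM in Dppa2 m-z+ embryos. In the Dppa4 arm it went from 1146 and 1125 to 824 and 795 FPKM in m+z+ embryos and from 1109 and 1066 to 707 and 902 FPKM in m-z+ embryos. Every 2-cell library lay below every 1-cell library, and the 2-cell means were 54.2, 61.4, 71.3 and 74.0% of the 1-cell means. The Dppa3 log2 changes were -0.88, -0.71, -0.49 and -0.44 (SE 0.14, limma adjusted p 0.000124, 0.000685, 0.0105 and 0.0169). Both Dppa4-arm calls were lost with median-ratio scaling (log2 -0.28, adjusted p 0.125 in m+z+ and -0.24, 0.181 in m-z+). The m+z+ call was also lost without 1-cell replicate 1 (adjusted p 0.0560), and the m-z+ call without 1-cell replicate 1 (0.0829), 1-cell replicate 2 (0.0552) or 2-cell replicate 1 (-0.27, 0.167), with only the libraries compared (0.0594) and without limma's trend and robust options (0.0631). The copy listed as Dppa3-ps stood at 2.82 to 11.8 FPKM in total RNA, and reads that match both could be divided between them by the authors' counting.

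**Figure D2:**
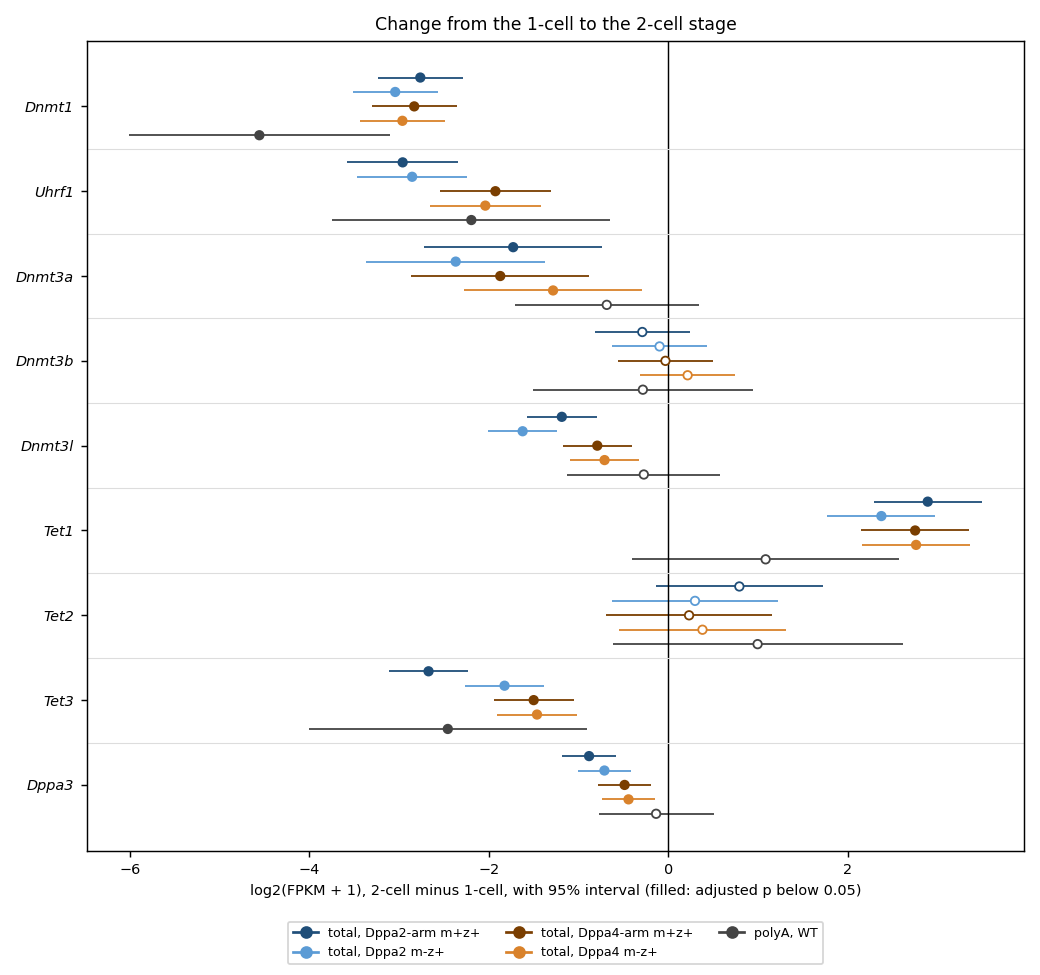
Log2 change of each gene from the 1-cell to the 2-cell stage on the log2(FPKM + 1) scale (horizontal axis) in the 4 total RNA genotypes and in wild-type polyA RNA; points are limma estimates, bars are 95% intervals and filled points have an adjusted p below 0.05. Dnmt1, Uhrf1 and Tet3 lie left of 0 in all 5 comparisons, and the polyA bars of Dppa3 (-0.78 to 0.50) and Dnmt3l (-1.13 to 0.58) include 0.

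The lists of maternally supplied and 2-cell genes moved with the stage. The summed level of the 8 maternal genes (Zp3, Gdf9, Bmp15, Mos, Zar1, Nlrp5, Ooep and Padi6) was 1544 to 2224 FPKM over the 1-cell total RNA libraries and 316 to 711 FPKM over the 2-cell libraries. In wild-type polyA RNA it dropped from 3370 and 3363 FPKM to 432 and 388 FPKM. The 7 2-cell genes summed to 20.2 to 23.2 FPKM and then 243 to 283 FPKM in Dppa2-arm m+z+ embryos. The part of these lists in the members' changes was not tested.

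In wild-type polyA RNA 3 of 9 members fell (Dnmt1, Tet3 and Uhrf1) and none rose, where 25.9% of all genes passed and 8.42% were lower. The median of the 9 members was -0.28 beside 0.23 over all genes. Dnmt1 went from 106 and 147 FPKM to 5.85 and 3.19 FPKM, Uhrf1 from 26.3 and 39.6 to 7.33 and 5.33 FPKM, and Tet3 from 34.9 and 53.2 to 4.05 and 11.8 FPKM. The stages did not overlap for any of these 3 genes, and Dnmt1 moved from the second place among members to the seventh. The log2 changes were -4.56 for Dnmt1 (SE 0.69, limma adjusted p 8.60e-05, 3.57% of the 1-cell mean left), -2.46 for Tet3 (SE 0.73, 0.0196) and -2.20 for Uhrf1 (SE 0.74, 0.0351). The Dnmt1 call held in all 12 alternatives tried. The count dropped from 3 to 1 without 1-cell replicate 1, 1-cell replicate 2 or 2-cell replicate 1, and to 2 without 2-cell replicate 2. Tet3 was lost without any of those 3 libraries (adjusted p 0.0592 to 0.185) and with only the libraries compared (0.0670), and Uhrf1 without any of the 4 libraries (0.0892 to 0.200), without the low-value filter (0.0771) and with a pseudocount of 0.1 (0.0552).

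Wild-type Dppa3 was at 7435 and 7617 FPKM in 1-cell polyA libraries and at 7120 and 6581 FPKM in 2-cell polyA libraries. The 2-cell mean was 91.0% of the 1-cell mean, and the log2 change of -0.14 (95% interval -0.78 to 0.50, limma adjusted p 0.807) did not pass. Dnmt3l stood at 48.8 and 58.5 FPKM against 36.7 and 52.7 FPKM, overlapping between the stages, with a log2 change of -0.27 (-1.13 to 0.58). It was second among the members in every 2-cell polyA group. Tet1 was at 0.891 and 4.64 FPKM in 1-cell and at 6.12 and 5.72 FPKM in 2-cell embryos, a log2 change of 1.08 (-0.40 to 2.57, limma adjusted p 0.290). Dnmt3a (14.0 and 15 against 7.33 and 10.1 FPKM, log2 -0.69), Dnmt3b (log2 -0.28) and Tet2 (0.99) did not pass either. The total RNA and polyA tables were made separately and their values were compared only within each table.

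**Figure D3:**
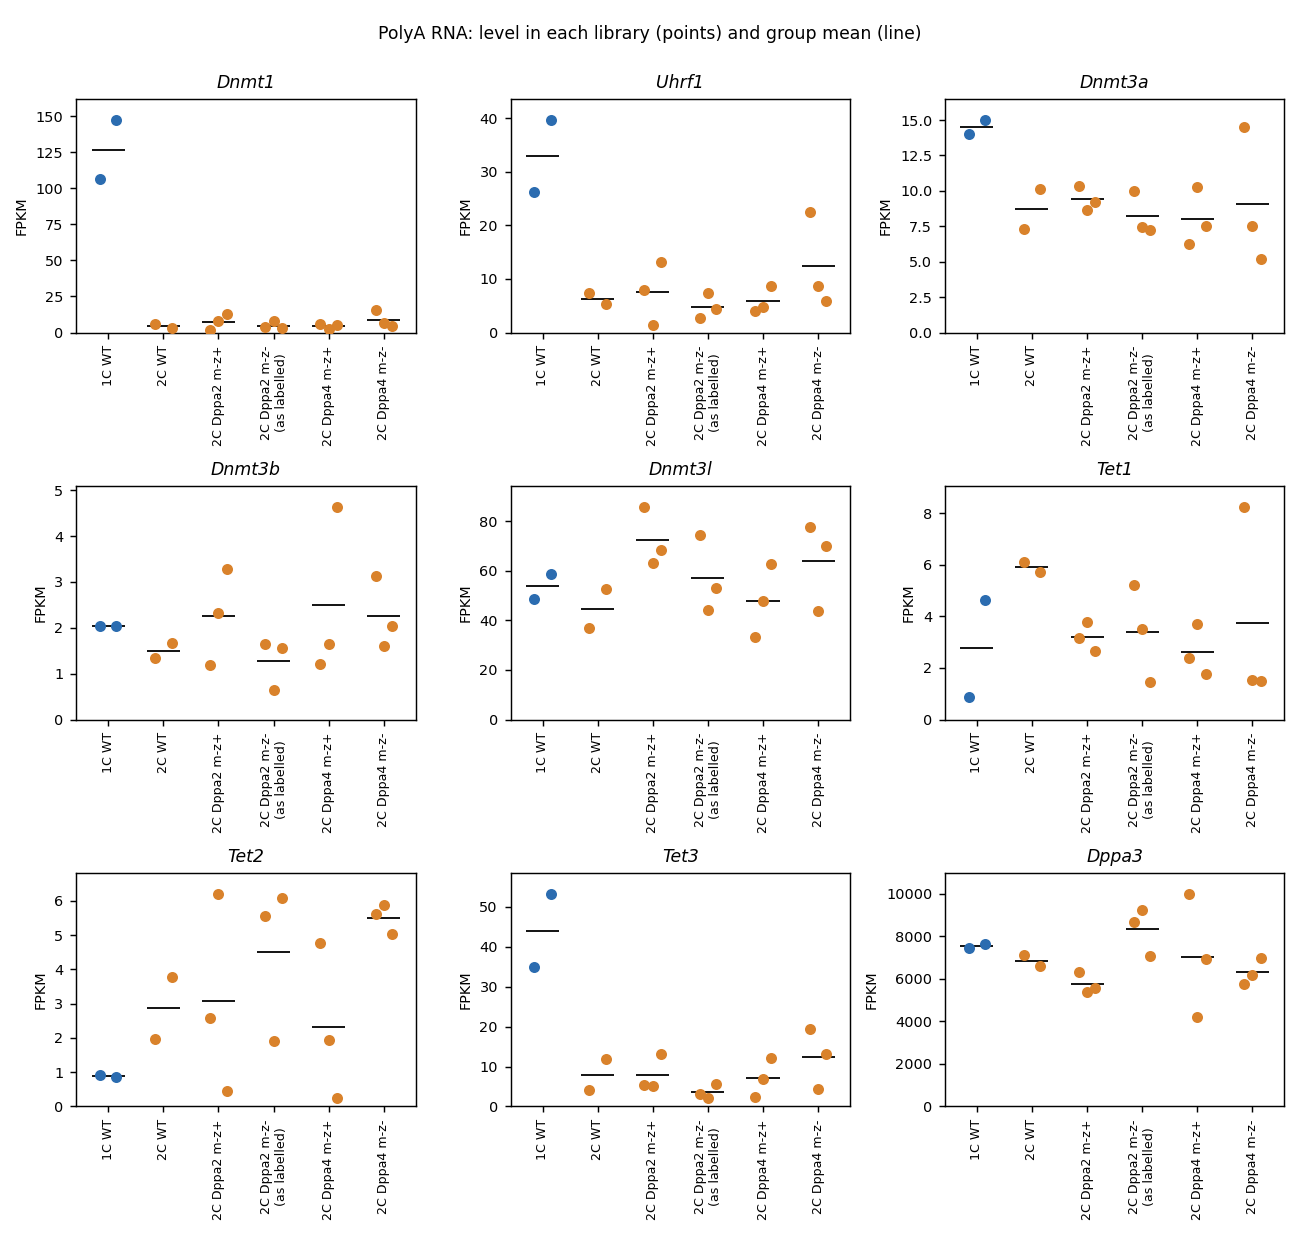
FPKM of the 9 genes in each of the 16 polyA libraries, 1 panel per gene with its own linear axis from 0; points are libraries (blue, 1-cell; orange, 2-cell) and lines are group means of 2 or 3 libraries. The wild-type 1-cell points of Dnmt1 (106 and 147) lie above all 14 2-cell points (1.98 to 15.6), and the mutated 2-cell groups overlap the wild type for Dnmt1.

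The second comparison sets m-z+ embryos, labelled as lacking a working maternal allele (maternal loss below), beside m+z+ embryos. Protein was not measured, and at the 2-cell stage loss of the maternal product and of an allele in the embryo itself cannot be told apart. None of the 9 members passed in any of the 4 comparisons of m-z+ with m+z+ embryos in total RNA, where 0.0398% of all genes passed for Dppa2 at the 1-cell stage, 0.186% for Dppa2 at the 2-cell stage, 0.00664% for Dppa4 at the 1-cell stage and 0% for Dppa4 at the 2-cell stage. At an unadjusted limma p under 0.05 the members counted 0, 1, 0 and 0, beside 459, 1932, 192 and 402 of all 15068 genes tested. Tet3 was the member with the smallest p: at the 2-cell stage it stood at 58.9 and 76.2 FPKM in Dppa2-arm m+z+ embryos and at 107 and 91.6 FPKM in Dppa2 m-z+ embryos. The Tet3 difference was 0.56 on the log2 scale (95% interval 0.12 to 1.00) with a limma adjusted p of 0.275, and 0.170 to 0.982 over the alternatives. Dppa3 at the same stage stood at 642 and 708 FPKM against 728 and 918 FPKM, a difference of 0.28 (-0.02 to 0.58, limma adjusted p 0.425). The summed maternal genes were 316 and 334 FPKM in those m+z+ libraries and 371 and 407 FPKM in the m-z+ libraries, and their part in these values was not tested.

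No member's stage change passed a test of its difference between genotypes. The difference between m-z+ and m+z+ stage changes passed for 0 of 9 members in each arm. It passed for 0% of all genes for Dppa2 and 0.00664% for Dppa4. In the Dppa2 arm 1 member (Tet3) and 1299 of all 15068 genes had an unadjusted limma p under 0.05. In the Dppa4 arm 0 members and 270 genes did. The Tet3 difference was 0.85 (95% interval 0.22 to 1.47, limma adjusted p 0.441, 0.195 to 0.869 over the alternatives), from a log2 change of -2.67 in m+z+ embryos to -1.83 in m-z+ embryos.

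The third comparison sets embryos labelled as lacking the zygotic allele as well beside m-z+ embryos. Between m-z- and m-z+ embryos at the 2-cell stage in polyA RNA, 0 of 9 members passed for either gene. Of all genes, 0.0054% passed for Dppa2 and 0.0162% for Dppa4. An unadjusted limma p under 0.05 was found for 1 and 0 members, beside 1415 and 1296 of all 18506 genes. Dppa3 stood at 8662, 9240 and 7049 FPKM in the libraries labelled Dppa2 m-z- and at 6333, 5357 and 5578 FPKM in Dppa2 m-z+. The difference of 0.53 (0.00 to 1.05) had a limma adjusted p of 0.646. Replicate 3 of that group had a summed level of 7 blood genes of 1578 FPKM against 16.8 to 147 FPKM in the other 2-cell polyA libraries, with 6 of the 7 above 0 in the group, and the part of this in its values was not tested; without it the Dppa3 difference was 0.64 (adjusted p 0.692).

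In Dppa4 m-z- embryos Tet2 stood at 5.61, 5.88 and 5.04 FPKM, against 4.78, 1.95 and 0.256 FPKM in Dppa4 m-z+. This difference of 1.23 (-0.09 to 2.55) had the largest size among all the genotype values and a limma adjusted p of 0.733; without m-z+ replicate 3 it was 0.65. Dnmt1 stood at 15.6, 6.65 and 4.84 FPKM against 5.74, 2.64 and 5.0 FPKM, a difference of 0.78 (adjusted p 0.825), Uhrf1 at 22.5, 8.61 and 5.95 against 4.05, 4.85 and 8.63 FPKM, a difference of 0.82 (0.829), and Tet3 at 19.3, 4.42 and 13.1 against 2.41, 6.80 and 12.1 FPKM, a difference of 0.72 (0.850). The groups overlapped for these 3 genes, and replicate 1 of Dppa4 m-z- was the highest library for each; without it the Dnmt1 difference was 0.34 and the Uhrf1 difference 0.31. The summed maternal genes stood at 1073, 751 and 903 FPKM in Dppa4 m-z-, at 339, 639 and 731 FPKM in Dppa4 m-z+ and at 432 and 388 FPKM in the wild type, with all 8 genes detected in each group, and their part in these values was not tested.

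Against the wild type at the 2-cell stage, 0 of 9 members passed in each of the 4 mutated polyA groups, with 0 members at an unadjusted limma p under 0.05. Of all genes, 0.113% passed for Dppa2 m-z+, 0.0973% for the group labelled Dppa2 m-z-, 0% for Dppa4 m-z+ and 0.0648% for Dppa4 m-z-. In that order 1435, 1149, 1230 and 1976 of all 18506 genes had an unadjusted limma p under 0.05. These 4 comparisons share the same 2 wild-type libraries. The wild type was B6 and the Dppa2 groups mixed B6/DBA, so genotype and strain cannot be told apart in the Dppa2 comparisons. Dnmt3l stood at 85.5, 63.1 and 68.2 FPKM in Dppa2 m-z+ and at 36.7 and 52.7 FPKM in the wild type, a difference of 0.69 (-0.09 to 1.47, limma adjusted p 0.708). Tet1 differed by -0.73 in Dppa2 m-z+, -0.75 in the group labelled Dppa2 m-z-, -0.97 in Dppa4 m-z+ and -0.84 in Dppa4 m-z-, none of which passed.

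How small a genotype difference these libraries could show varied with the table. Over all 12 genotype comparisons, which include the differences of stage changes between m-z+ and m+z+ embryos, 0 of 108 member values passed. An unadjusted limma p under 0.05 was found for 3 of them, and the counts over all genes stand with each comparison above. Each gene's spread was shared over all groups of a table. Yet libraries of a total RNA group correlated at 0.980 to 0.987 at the 1-cell and 0.935 to 0.960 at the 2-cell stage, so 2-cell intervals may be too narrow. Leaving out the differences of stage changes, 27 of 36 member values in total RNA had a 95% interval within 1 log2 unit of 0. In polyA RNA 8 of 54 did. A difference of 1 log2 unit was thus within the interval for most member values in polyA RNA, and the absence of a call there does not show equal levels. On the scale of FPKM + 1 that unit is more than 2-fold in FPKM for low genes, in both tables. Tet1 at the 1-cell stage, with means of 0.848 FPKM in Dppa2 m-z+ and 0.279 FPKM in m+z+ embryos (3.04-fold), differed by only 0.48.

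The control embryos of the arms differed from each other at the 2-cell stage in 2 of 9 members. At the 1-cell stage 0 of 9 members passed between Dppa2-arm and Dppa4-arm m+z+ embryos, where 1.01% of all genes passed. There 0 members and 1167 of all 15068 genes had an unadjusted limma p under 0.05. At the 2-cell stage Uhrf1 and Tet3 were lower in the Dppa2 arm, where 9.13% of all genes passed, 4.63% lower. Uhrf1 stood at 27.3 and 24.1 FPKM in Dppa2-arm controls and at 45.0 and 79.9 FPKM in those of the Dppa4 arm, which differed by -1.20 on the log2 scale (SE 0.28, limma adjusted p 0.0240). Tet3 stood at 58.9 and 76.2 FPKM against 138 and 167 FPKM, a difference of -1.17 (SE 0.20, adjusted p 0.00728). The arms did not overlap for either gene, and the share of all genes without overlap is not given here. Dnmt3l stood at 19 and 20.4 FPKM against 26.5 and 35.1 FPKM, a difference of -0.61 that did not pass (adjusted p 0.0516).

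Dppa4-arm m+z+ 2-cell replicate 2 had much weight in the arm comparison: without it no member passed (Uhrf1 -0.79, adjusted p 0.235; Tet3 adjusted p 0.0797). Uhrf1 was also lost without Dppa2-arm replicate 1 (0.0605) or 2 (0.0788) and without the filter on low values (0.0668), and both genes when only the libraries compared entered the fit (0.330 and 0.319). Dnmt3l passed with a minimum of 5 FPKM (0.0421), with TPM scaling (0.0424) and without Dppa4-arm 2-cell replicate 1 (0.0177). With TPM scaling the genes called higher and lower over all genes changed from 678 and 697 to 301 and 952, and between the m-z+ arms from 319 and 321 to 147 and 300. The difference of stage changes between the arms' controls passed for no member (0.139% of all genes). Tet3 (limma adjusted p 0.103) and Uhrf1 (0.248) were the 2 members with an unadjusted p under 0.05, beside 2310 of all 15068 genes. Without Dppa4-arm m+z+ 2-cell replicate 1 the Tet3 difference was -1.30.

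Among m-z+ embryos of the arms at the 2-cell stage, a comparison added after the data were seen, only Dnmt3l passed of the 9 members (4.25% of all genes passed, 2.13% lower). It stood at 19.9 and 15.2 FPKM in Dppa2 m-z+ and at 33.5 and 31.3 FPKM in Dppa4 m-z+, a difference of -0.86 (SE 0.18, limma adjusted p 0.0234) that was lost without Dppa2 m-z+ replicate 2 or either Dppa4 m-z+ replicate (adjusted p 0.0569 to 0.128), with only the libraries compared (0.279) and with a replicate block within arm and stage (0.0784). Uhrf1 (-0.86, adjusted p 0.0967) and Tet3 (-0.51, 0.158) did not pass. The maternal gene sum moved with the arms: it was 316, 334, 371 and 407 FPKM in the 4 Dppa2-arm 2-cell libraries and 458, 711, 568 and 534 FPKM in the 4 of the Dppa4 arm. Its part in the arm difference was not tested, and arm and strain cannot be told apart.

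**Figure D4:**
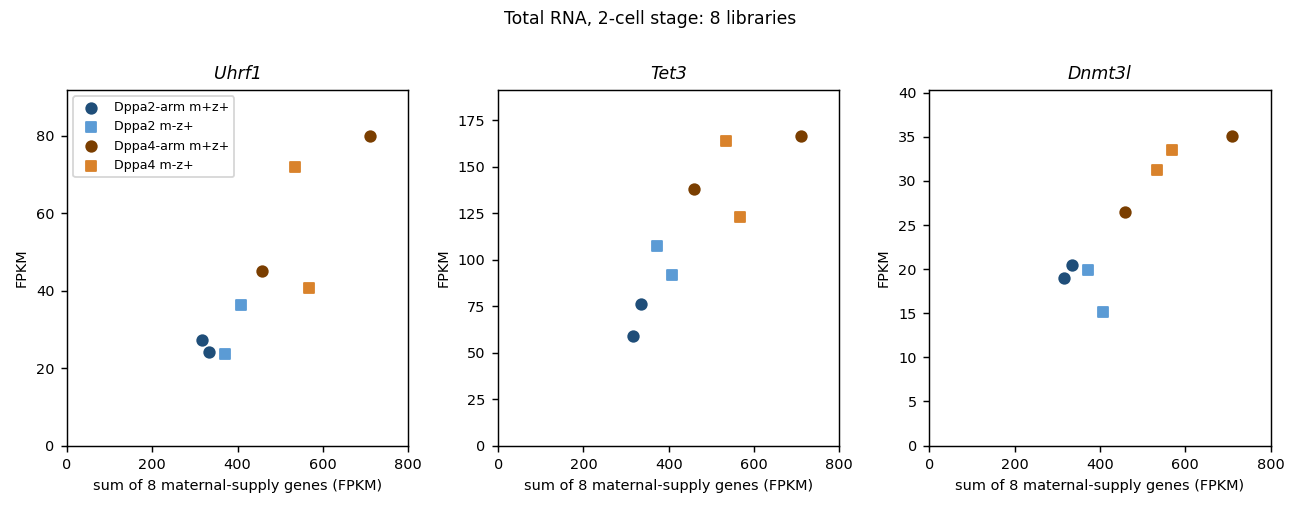
FPKM of Uhrf1, Tet3 and Dnmt3l (vertical axes) against the summed FPKM of 8 maternally supplied genes (horizontal axes) in the 8 total RNA 2-cell libraries; each point is 1 library, marked by arm and genotype. The Dppa2-arm libraries lie at sums of 316 to 407 and the Dppa4-arm libraries at 458 to 711, and Uhrf1 is highest (79.9) in the library with the highest sum.

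A list of 53 partner genes of the pathway places the members beside their surroundings. Of these, 46 were tested in total RNA and 45 in polyA RNA. From the 1-cell to the 2-cell stage 13 rose and 20 fell in Dppa2-arm m+z+ embryos, 9 and 19 in Dppa4-arm m+z+ embryos, 12 and 19 in Dppa2 m-z+ and 10 and 17 in Dppa4 m-z+, each of 46 tested. Of all genes, 31.7% were higher and 29.9% lower in the first of these comparisons, 24.9 and 24.2% in the second, 28.8 and 28.4% in the third and 25.3 and 25% in the fourth, so the shares of partners that rose were near or below the background. The partners' median log2 changes were -0.36, -0.49, -0.33 and -0.42, beside 0.06, 0.04, 0.02 and 0.03 for all genes. In wild-type polyA RNA 11 rose and 7 fell of 45 tested, where 25.9% of all genes passed, with a median of -0.09 beside 0.23. In all 4 total RNA genotypes 14 partners fell and 9 rose, and none passed in opposite directions in different genotypes. The share of all genes called in the same direction in all 4 is not given here, so these 2 counts have no background beside them. No partner passed in any genotype comparison of either table.

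Among the 14 partners that fell throughout were genes of several steps. Neil3, a DNA glycosylase, showed log2 changes of -4.09 in Dppa2-arm m+z+ embryos and -2.57 in Dppa4-arm m+z+ embryos, and it went from 355 to 13.1 FPKM in wild-type polyA means. Setdb1, a histone H3 lysine 9 methyltransferase, changed by -2.46 and -2.29 in the 2 arms' controls, and Zfp57, which binds methylated imprints, by -2.09 and -2.23. The others included the glycosylase genes Neil2, Smug1 and Ung, the repair genes Polb and Lig3, the CpG-binding genes Mbd1 and Cxxc1, the histone demethylase gene Kdm1a, and Ahcy and Mat2b of methyl donor metabolism. Of 15 tested genes of 5-hydroxymethylcytosine processing and repair, 7 fell in each genotype and 2 or 3 rose, where 24.2 to 29.9% of all genes were lower and 24.9 to 31.7% higher.

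The 9 partners that rose throughout included Uhrf2, the paralogue of Uhrf1, whose mean was 0.681 FPKM at the 1-cell stage and 8.50 FPKM at the 2-cell stage in Dppa2-arm m+z+ embryos (log2 2.49) and whose change in Dppa4-arm m+z+ embryos was 2.75. Gadd45b, a stress gene linked to demethylation, rose by 3.75 and 3.04 in the 2 arms' controls and by 4.30 in wild-type polyA RNA. The others included Gadd45a, the histone methyltransferase genes Ehmt2 and Setd2, the corepressor gene Trim28, Mat2a of methyl donor metabolism, and the nuclear export gene Xpo1. In wild-type polyA RNA Uhrf2 rose by 3.10 and Xpo1 by 2.95, while Zfp57 fell by 3.43 and Setdb1 by 2.08. Between the arms' controls at the 2-cell stage Hells (0.73), Ogt (1.23) and Apex1 (1.14) were higher in the Dppa2 arm and Ddb1 (-0.80) and Neil3 (-1.48) lower, with limma adjusted p of 0.0243 to 0.0369. These 5 of 46 partners are near the 9.13% of all genes that passed there, and with only the libraries compared 4 of 15068 genes passed in place of 1375.

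Likeness of pattern was measured as Pearson's r of log2(FPKM + 1) over the 16 total RNA libraries, among 5688 genes with a mean of at least 10 FPKM, as a description. All r share the same libraries and are carried mostly by the stage difference. Among members the highest were 0.970 for Uhrf1 with Tet3, 0.957 for Dnmt1 with Uhrf1 and 0.943 for Uhrf1 with Dnmt3l, and Dnmt1 with Tet1 had -0.978. Dnmt3b stood apart in total RNA, with r of -0.20 to 0.17 to the other members. Over the polyA libraries its r ran from -0.40 with Dppa3 to 0.56 with Tet3. The genes most like Dnmt1 were Rgs2 (0.993), Gpatch1 (0.993) and Ccno (0.991), and those most like Uhrf1 were Lhx8 (0.991), Ldhb (0.990) and Gpr1 (0.989). Tet3 was most like Crbn (0.987), Rfpl4 (0.985) and Bcl2l10 (0.983), and Dppa3 most like Dpf3 (0.959), Gm973 (0.956) and Nfyc (0.956). Over the 16 polyA libraries r to the same genes, in the order named, was 0.940, 0.663 and 0.836 for Dnmt1 and 0.749, 0.815 and 0.784 for Uhrf1. It was 0.240, 0.684 and 0.765 for Tet3 and 0.265, 0.253 and 0.582 for Dppa3.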

How the data were processed

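RNA-seq of mouse late 1-cell and 2-cell embryos gave 16 total RNA libraries and 16 polyA libraries, 2 or 3 per group. Total RNA libraries were reverse-stranded (SMARTer Stranded) and polyA libraries non-stranded (SMARTer Ultra Low Input with Nextera XT), per the labels' protocols. The deposited values are FPKM per gene. HISAT2 2.1.0, StringTie 1.3.3b and mm10 are named in the submitters' processing notes, and which annotation, filters and strand option the authors ran is not given in the sources used here.

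Testing was limited to genes that reached 1 FPKM in 2 or more libraries (15068 in total RNA, 18506 in polyA RNA) on log2(FPKM + 1), which understates changes of low genes, with limma 3.58.1 in R 4.3.3 (statmod 1.5.0; trend and robust), 1 fit per table with 1 mean per group, two-sided, Benjamini-Hochberg over all genes tested, threshold 0.05. Intervals are 95%. Library depth is unknown, so precision rests on the spread between libraries. The code was tested on simulated data. Alternatives were another pseudocount, other filters on low values, TPM and median-ratio scaling, a fit of only the libraries compared, limma without trend or robust options, a replicate block and leaving out each library. All 9 members are named, partners are named from up to 6 per direction with the largest change in a comparison, those that passed in all 4 total RNA stage comparisons were named after their values were seen (some are not reported here), and the 3 genes most alike are named for 4 members. Members and lists were chosen with earlier results of these data known. Promoter sequences are from RefSeq (GRCm38.p6) and gene positions from GENCODE vM21. The difference of stage changes between the arms' controls, the m-z+ arm comparison and the block within arm and stage were added after seeing the data.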

Additional observations from a re-analysis of the deposited data

How the results depend on the processing

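The libraries per group (2 or 3) limit what could be shown, and read depth is unknown. Over 21 comparisons, 178 of 182 counts of members that passed, from settings other than leaving out a library, were within 1.5 times the reported count. Most of these were counts of 0 that stayed 0, so the share says little about the comparisons in which a member passed. No member's direction reversed among called values. Of the Dnmt1, Uhrf1, Dnmt3l, Tet1 and Tet3 stage calls in total RNA, none was lost in any of 13 alternatives in any of the 4 genotypes. The wild-type polyA count of 3 was 1 to 2 when a library was left out. The count of 2 between the arms' 2-cell controls was 1 with no filter on low values, 0 with only the libraries compared and 0 to 3 when a library was left out. The m-z+ arm count of 1 was 0 with only the libraries compared, 0 with the replicate block within arm and stage, and 0 to 1 when a library was left out. The count of 0 for the difference of stage changes between the arms' controls was 0 to 1 when a library was left out. The cause of these moves was not tested.

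Over all genes tested, replicate numbers showed little pairing of the libraries. Correlations of same-numbered deviations were -0.04 to 0.12 for total RNA and -0.18 to 0.08 for polyA RNA. Of the polyA libraries, 2 of 6 Dppa2 and 0 of 6 Dppa4 libraries correlated best with their own number. With 2 libraries per group, both replicates of a total RNA pair of groups give the same value. Whether single genes pair by replicate number cannot be decided from these values. A replicate block left the member counts at 7 in each total RNA stage comparison, 3 in wild-type polyA RNA, 2 between the arms' 2-cell controls, 1 between the m-z+ arms and 0 elsewhere. Over all genes it moved the counts against the wild type from 21 to 9 (Dppa2 m-z+), from 18 to 9 (labelled Dppa2 m-z-) and from 12 to 4 (Dppa4 m-z-).

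TPM scaling moved the median of all genes by -0.36, -0.28, -0.20 and -0.28 log2 units in the stage comparisons of Dppa2-arm m+z+, Dppa4-arm m+z+, Dppa2 m-z+ and Dppa4 m-z+ embryos, and median-ratio scaling by 0.17, 0.15, 0.17 and 0.14. In wild-type polyA RNA these shifts were -0.10 and -0.12. Counts over all genes moved by over 1.5 times in these comparisons, given as the range over settings and then over left-out libraries: wild-type polyA stage 4784 (4425 to 5591; 2762 to 3321), arms' controls at the 2-cell stage 1375 (4 to 1458; 128 to 2458) and at the 1-cell stage 152 (5 to 158; 41 to 58), m-z+ arms 640 (0 to 730; 93 to 778), Dppa2 maternal loss at the 2-cell stage 28 (0 to 111; 26 to 465) and at the 1-cell stage 6 (0 to 49; 2 to 6). For Dppa4 maternal loss they were 1 (0 to 18; 0 to 2) at the 1-cell and 0 (0 to 54; 0 to 3) at the 2-cell stage. Differences of stage changes gave 0 (0 to 41; 0 to 154) for Dppa2, 1 (0 to 19; 1 to 2) for Dppa4 and 21 (1 to 72; 0 to 672) between the arms' controls. Embryos labelled m-z- against m-z+ gave 1 (0 to 6; 0 to 32) for Dppa2 and 3 (1 to 5; 2 to 5) for Dppa4. Comparisons with the wild type gave 21 (0 to 41; 2 to 28) for Dppa2 m-z+, 18 (0 to 30; 1 to 13) for the group labelled Dppa2 m-z-, 0 (0 to 21; 0 to 2) for Dppa4 m-z+ and 12 (1 to 27; 2 to 20) for Dppa4 m-z-.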

Other observations

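Dppa3 varied more within Dppa4 m-z+ embryos than in any other polyA group, from 9960 FPKM in replicate 1 to 4197 FPKM in replicate 2, with 6907 FPKM in replicate 3. The wild-type 2-cell pair lay at 7120 and 6581 FPKM, inside that range.

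In Dppa4 m-z- replicate 1 Dnmt1 (15.6 FPKM), Uhrf1 (22.5), Tet3 (19.3), Tet1 (8.23) and Dnmt3a (14.5) were each the highest of all 14 2-cell polyA libraries, whereas Dppa3 (5757 FPKM) was the lowest of the 3 libraries of its group. Tet1 stood at 1.53 and 1.49 FPKM in the other libraries of that group.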
